A study of Homo sapiens with 5 samples.

Results

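ERRFI1 and the acetylated chromatin upstream of it were examined in HCT116 cells, an established line from a human colorectal carcinoma. The summits of 5 ChIP-seq lists were taken from a window of 300 kb on chromosome 1, from 8000000 to 8300000 in hg19, the build of all positions below unless another is named. This window held 156 of the 209263 summits in all lists, namely 72 of 29429 for control H3K27ac, 69 of 31839 for H3K27ac after knockdown, 14 of 122439 for control KAT7, 1 of 24611 for KAT7 after knockdown and 0 of 945 for input DNA. The cells had been transfected for 48 h with control siRNA or with siRNA that targets the long noncoding RNA ENO1-IT1, and chromatin was precipitated with antibodies to histone H3 acetylated at lysine 27 (H3K27ac) or to KAT7. Input DNA came without antibody, and its label does not give the siRNA. Each group was 1 library of this 1 cell line, so no difference below has a replicate check and none carries a p-value. Conditions were read from the sample titles, and the knockdown itself cannot be read from summit lists. The window was selected on the density of its H3K27ac summits, so the number of H3K27ac summits and their crowding are given as a description only.

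ERRFI1, also called MIG6, encodes a cytoplasmic adaptor that binds the kinase domain of EGFR and its relatives and inhibits it. The gene is switched on by growth factor signalling and thereby acts as negative feedback on EGFR, in the intestine among other epithelia. H3K27ac marks active promoters and enhancers, and long runs of H3K27ac-marked sites are often found near genes that are highly transcribed in a cell type. KAT7, also called HBO1, is a MYST-family acetyltransferase best known for acetylating histone H3 at lysine 14 and histone H4. The gene lies on the minus strand at about 8.072 to 8.086 Mb, as the selection rule places it, so that larger positions are upstream. No hg19 gene annotation was used, and summits were therefore not assigned to exons, introns or start sites. In the RefSeq gene order of another build, GRCh38.p14, the nearest protein-coding neighbours are PARK7 on the downstream side and SLC45A1 on the upstream side. ERRFI1-DT, a divergent long noncoding RNA, is the next gene upstream of ERRFI1.

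The ERRFI1 promoter is shown because the strongest H3K27ac summits close to the gene lay just upstream of it. The 250 bases before the RefSeq start are at chr1:8026310-8026559 of GRCh38.p14, minus strand, a position that is not comparable with the hg19 summits. Capitals mark matches on either strand to the CCAAT box, to the GC box with the letters GGGCGG, and to a TATA run with the letters TATATA, which matched at 2 overlapping places.
ERRFI1: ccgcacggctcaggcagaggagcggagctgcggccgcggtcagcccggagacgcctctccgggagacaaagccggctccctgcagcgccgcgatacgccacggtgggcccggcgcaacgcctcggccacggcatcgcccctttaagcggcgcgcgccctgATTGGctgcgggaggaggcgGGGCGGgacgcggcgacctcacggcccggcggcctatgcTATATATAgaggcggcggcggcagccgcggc
This stretch was 75.2% G and C and held 39 CG pairs. RefSeq windows of 300 bases, 250 before and 50 after a start, were available for 35116 genes. The CCAAT box was found in 34.6% of these, the GC box in 45.0% and the TATA run in 3.99%. Other motifs had no match for ERRFI1, namely the core of the cyclic AMP response element (TGACG, in 24.6% of windows), the AP-1 site (TGANTCA, in 7.71%) and the E-box (CACGTG, in 7.26%). The windows of ERRFI1 and ERRFI1-DT overlapped by 283 bases on opposite strands, so both genes share this promoter sequence. No summit was placed in this sequence, and an H3K27ac summit there could not be given to either gene.

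H3K27ac was listed along nearly the whole upstream side of ERRFI1 in both conditions, and more sparsely on the downstream side. The gene itself held 5 control and 7 knockdown summits, all under their lists' median scores of 7.14 and 8.02, with scores of 2.61 to 5.03 and 3.42 to 6.66. The score is the authors' own value for each summit, on the -log10 scale of a p or q value from MACS2, and is compared within a list only. Upstream of the gene as far as 8.165 Mb there were 22 summits in each list, with median scores of 8.54 in the control and 10.3 after knockdown. The 135 kb beyond held another 40 control and 34 knockdown summits, so H3K27ac did not end at 8.165 Mb. Downstream of the gene, toward PARK7, the 72 kb to the window's edge held 5 and 6.

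**Figure D1:**
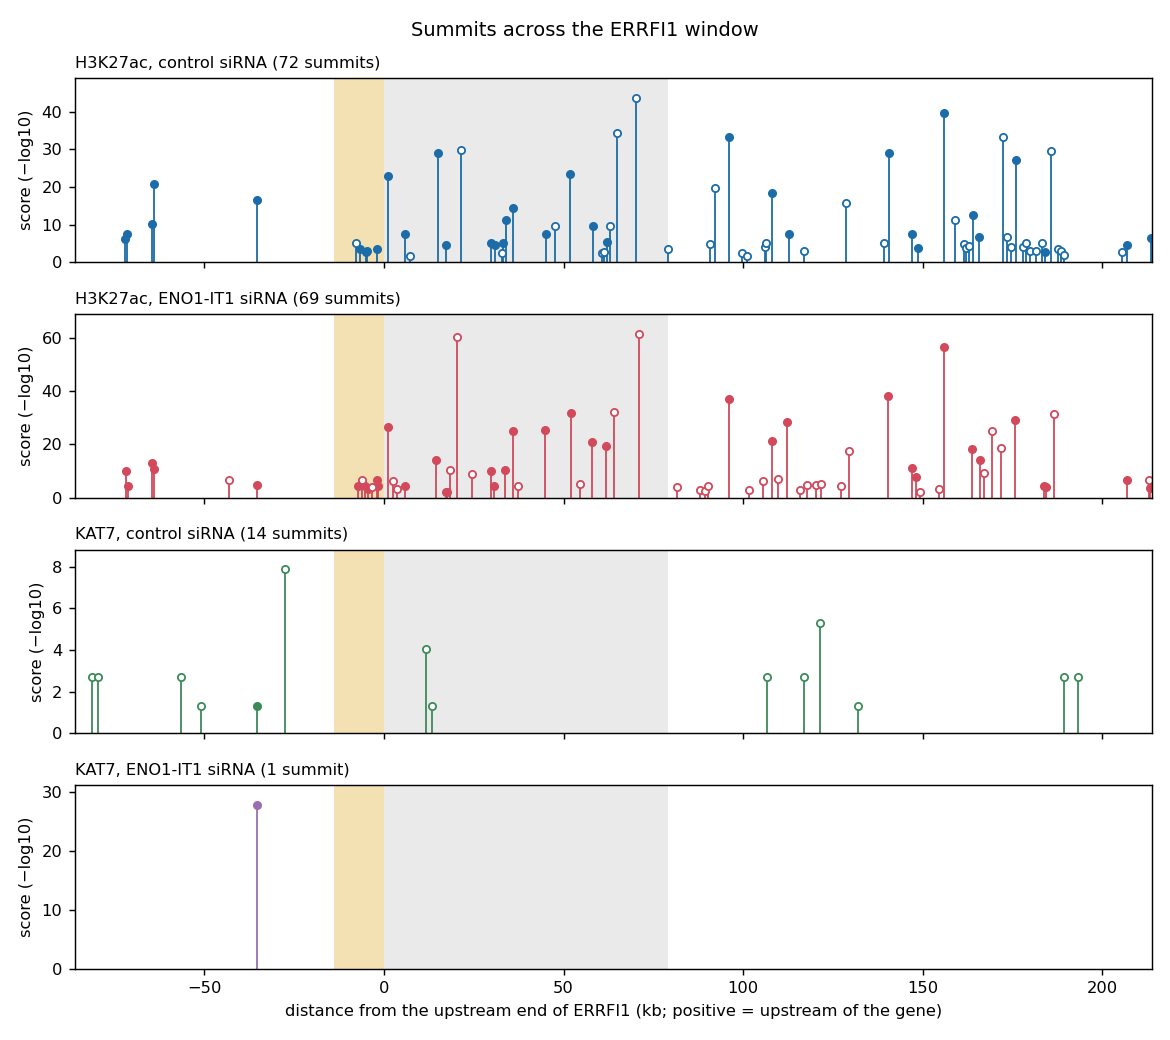
Summits of the 4 immunoprecipitated lists by distance from the upstream end of ERRFI1 (kb, x axis) and by score (y axis, a separate scale in each panel). Yellow marks the gene and grey the upstream stretch to 8.165 Mb; filled points have a summit of the same antibody in the other condition within 500 bp and open points do not. The 72 control and 69 knockdown H3K27ac summits crowd on the upstream side, while KAT7 has 14 and 1.

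H3K27ac was much sparser on both sides of the window than inside it. The first H3K27ac summits of the window lay at 8014029 in the control and 8014158 after knockdown, and the nearest below the window were at 7844353 and 7845128. At the upper edge, the last summits inside were at 8299502 in the control and 8299427 after knockdown, and the next lay 103877 bp and 18780 bp beyond the edge. The 300 kb on the lower side held 2 control and 5 knockdown H3K27ac summits, and the 300 kb on the upper side also 2 and 5. Over 300 kb windows with any H3K27ac summit the median was 3 in each list, so the flanks were not unusually poor in H3K27ac. KAT7 did not follow this pattern. Its control list had 18 and 16 summits in the flanks against 14 in the window, and its knockdown list 4 and 3 against 1. No input summit was nearer than 2629280 and 23241020 on this chromosome.

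Windows of 300 kb were tiled along the genome with a grid set to the borders of the ERRFI1 window. Other dense loci could be cut by a border, so the order of windows favours this one and is a description only. Of these windows, only 1 held more H3K27ac summits than the ERRFI1 window, in either condition. It was the same window each time, on chromosome 12 from 76100001 to 76400000, with 83 control and 75 knockdown summits. The median over windows with any H3K27ac summit was 3 in each list. Control KAT7, at 14, was close to its own median of 13, and knockdown KAT7, at 1, was below its median of 2. The window thus stood out in H3K27ac, for which it was selected, and not in KAT7.

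Scores in the window spread much as in the whole lists, with a somewhat lower median and somewhat more summits among the highest. The median score was 5.03 in the control, where the whole list had 7.14, and 6.66 after knockdown, where the list had 8.02. In the control 30 of 72 summits, or 41.7% (30.2 to 53.9%), scored above the list's median, and 13, or 18.1% (9.98 to 28.9%), were among the highest 10% of the list. After knockdown these were 31 of 69, or 44.9% (32.9 to 57.4%), and 10, or 14.5% (7.17 to 25.0%). The intervals above the median held the 50% of any list, and the lower bounds for the highest 10% lay under 10%. The highest control score, 43.6 at 8156165, ranked 418 of 29429, and the highest knockdown score, 61.5 at 8157134, ranked 332 of 31839.

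Runs of summits were built by linking neighbours at most 10000 bp apart. The run at ERRFI1 had 28 control summits over 87.0 kb, from 8078215 to 8165199, and 29 knockdown summits over 78.4 kb, from 8078775 to 8157134. By number of summits these ranked 5 of 15496 control runs and 6 of 17974 knockdown runs. By length they ranked 2 and 4. Inside the run, summits were spaced by a median of 2229 bp (control) and 2175 bp (knockdown). The end in the control rested on 1 weak summit, at 8165199 with a score of 3.54, with the next summit below it at 8156165.

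A farther run lay upstream in both conditions. In the control it had 25 summits from 8225246 to 8275424, a length of 50.2 kb, and after knockdown 15 summits from 8226301 to 8272483, a length of 46.2 kb. Between the nearer and the farther run, the control list had a run of 10 summits and a lone summit, and the knockdown list a run of 16. With neighbours linked up to 20000 bp, these joined into 1 run, the run with the most summits in each list. In the control it had 67 summits over 221 kb and also took in 3 summits from 8291595 to 8299502. After knockdown it had 60 over 194 kb. With 5000 bp the run at ERRFI1 broke down to 8 summits over 15.1 kb and 11 over 13.1 kb. At that gap it ranked 90 by number of summits in the control and 27 after knockdown. The length of the run at ERRFI1 is therefore a matter of the gap allowed. The run was defined by the summit nearest to the gene's upstream end, so some run is found at any gap, and its presence at all 3 is no result.

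**Figure D2:**
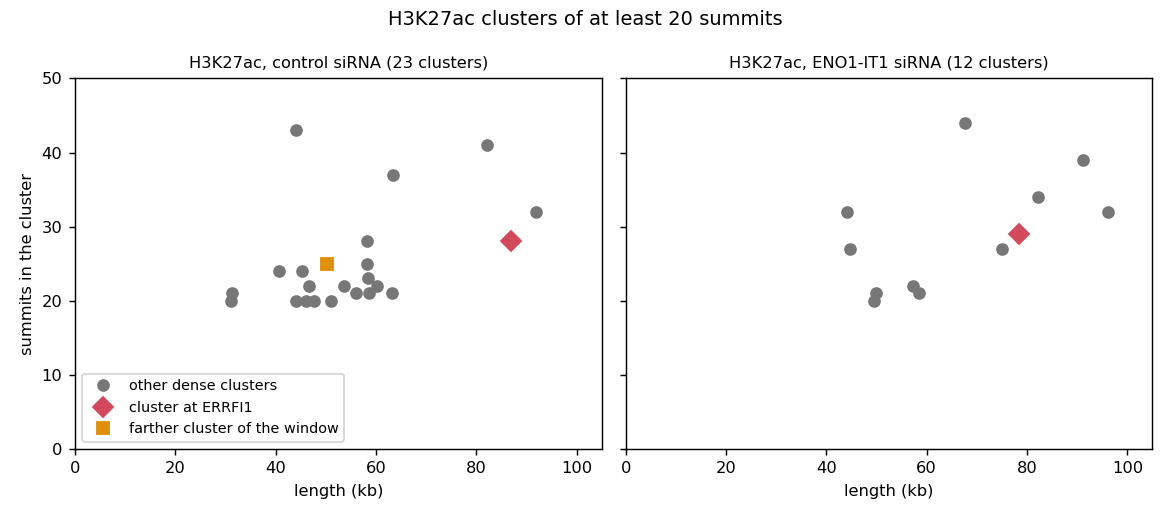
Runs of at least 20 H3K27ac summits, by length in kb (x axis) and number of summits (y axis), in the control (23 runs) and after knockdown (12 runs). The run at ERRFI1, at 87.0 kb with 28 summits and 78.4 kb with 29, is long in both panels, and the farther run of the window reaches 20 summits in the control only.

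The 3 control runs nearest to it in number of summits had 28 on chromosome 4 from 169452932 to 169511077, 25 on chromosome 7 from 130597596 to 130655723, and 25 in the farther run of the same window. These were 58.1, 58.1 and 50.2 kb long, against 87.0 kb at ERRFI1. The run at ERRFI1 was more loosely spaced, with 32.2 summits per 100 kb in the control, where the median of the other 22 runs was 44.4. After knockdown the values were 37.0 and, for 11 other runs, 41.3.

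The strongest position close to the gene was listed in both conditions. In the control it was at 8087158 with a score of 23.0, ranked 2137, about 1.16 kb upstream of the gene's upstream end. After knockdown it was at 8087026 with a score of 26.5, ranked 3235, and the summits were 132 bp apart. The next control summits on either side scored lower, at 8084162 inside the gene with 3.54 and at 8091797 with 7.57. After knockdown the next on either side were at 8084473 with 4.39 and at 8088470 with 6.25. The last had no control summit within 500 bp, the nearest being 1312 bp away. Also among the 3 summits nearest to the gene's upstream end were 8081258 in the control, scored 2.93, and 8083953 after knockdown, scored 6.66. Both lay inside the gene and were shared within 500 bp, at 351 and 209 bp. Acetylation next to the gene's upstream end was thus listed under both siRNAs, with the strongest summits there 132 bp apart.

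Farther upstream, several of the highest-scored summits of each list were not shared within 500 bp and had their nearest counterpart 619 to 1042 bp away. The highest control summit, at 8156165 (score 43.6) and 70.2 kb upstream of the gene, and the highest knockdown summit, at 8157134 (score 61.5), were 969 bp apart. The knockdown list's second-highest score, 60.2 at 8106442, lay 1042 bp from the control summit at 8107484, which scored 29.8. At 8150823 (control, 34.4) and 8149942 (knockdown, 32.2) the distance was 881 bp. At 8258423 (control, 33.3) and 8257743 (knockdown, 18.8) it was 680 bp, and at 8271864 (control, 29.6) and 8272483 (knockdown, 31.4) 619 bp. These 5 control summits are the highest-scored of the window without a knockdown summit within 500 bp, and each had a knockdown summit at most 1042 bp away. Of all control summits of the window 69.4% had a knockdown summit within 1000 bp, so a neighbour at such a distance does not show that a pair is the same site.

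Other strong sites kept their position. Summits at 8182117 (control, score 33.2) and 8182093 (knockdown, 37.1) were 24 bp apart. Those at 8241961 (control, 39.5) and 8242091 (knockdown, 56.5) were 130 bp apart, and those at 8226644 (control, 28.9) and 8226301 (knockdown, 38.0) 343 bp apart. Of the 10 highest-scored control summits, 5 had a knockdown summit within 500 bp and 9 within 1000 bp, where control summits with such scores in the whole list had 81.8% and 91.0%. In the knockdown list, 6 of the 10 highest did so within 500 bp and 9 within 1000 bp, against 85.6% and 95.2% of the list at such scores. At 500 bp both counts were lower than over the lists, and at 1000 bp near them. The largest distance for these strongest summits was 1042 bp in either direction. Among the summits listed after knockdown without a control summit within 500 bp, the fifth-highest, at 8255346 with a score of 25.1, was the exception in distance, at 3077 bp.

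Fewer H3K27ac summits of the window were shared within 500 bp than in the control list as a whole. Of the 72 control summits, 35 had a knockdown summit within 500 bp, or 48.6% (exact Clopper-Pearson 95% interval 36.7 to 60.7%), against 71.9% of the whole list. From the knockdown side, 37 of 69 summits were shared, or 53.6% (41.2 to 65.7%), against 64.3%. Intervals cover counting error only, and neighbouring summits are not independent. The control share lay below the list's with its whole interval, and the interval of the knockdown share reached the list's value. Runs of at least 20 summits outside the window gave 56.4% (52.0 to 60.6%) for 527 control summits and 55.8% (50.2 to 61.3%) for 319 knockdown summits, and the intervals of the window overlapped these. The difference from such runs was not tested. The run at ERRFI1 itself shared 17 of 28 control summits, or 60.7%, where the median of the other 22 control runs was 53.7%. After knockdown it shared 18 of 29, or 62.1%, where the median of 11 other runs was 55%. The farther control run of the window, described above and counted among the 22, shared 8 of 25, or 32%. The run at ERRFI1 thus lay above the medians of other runs and below the whole lists. For the gene and upstream stretch, nearly the same summits, the intervals were 42.4 to 80.6% (control) and 42.3 to 79.3% (knockdown). These held the values of the window, the other runs and the lists, so the run cannot be told apart from them. The low share of the window cannot be called particular to this locus.

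The order of window and whole list depended on the distance allowed and on the side. For control summits the window lay below the list at each distance, with 18.1% against 35.8% within 100 bp, 69.4% against 87.3% within 1000 bp and 86.1% against 93.5% within 2000 bp. For knockdown summits it lay below at 100 bp, with 18.8% against 33.0%, close to the list at 1000 bp, with 73.9% against 75.7%, and above it at 2000 bp, with 87.0% (76.7 to 93.9%) against 81.1%. The median distance to the nearest summit of the other list was 544.5 bp for control summits, where the whole list had 188 bp, and 462 bp for knockdown summits, where it had 228 bp.

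**Figure D3:**
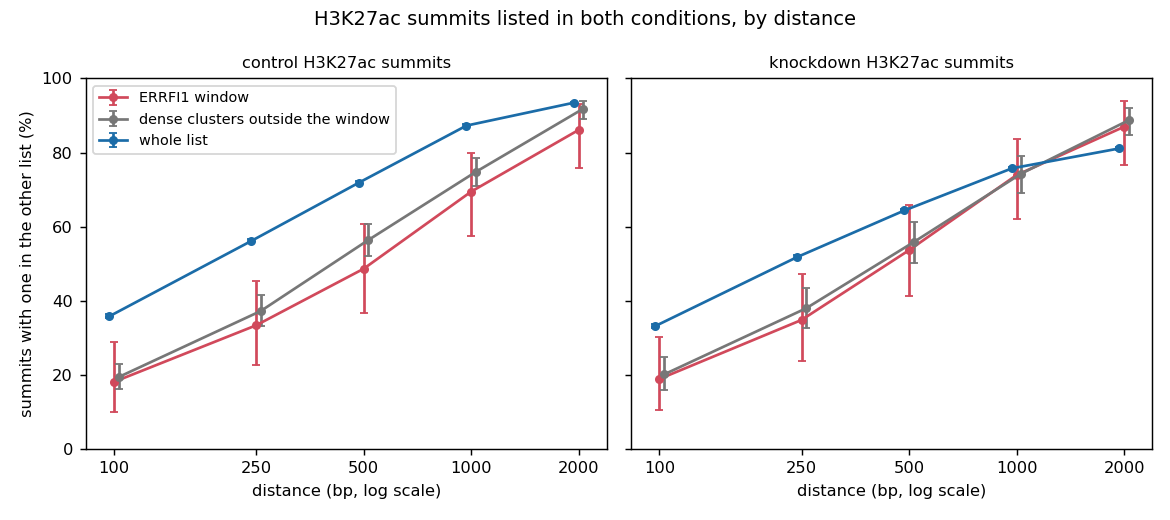
Share of control (left) and knockdown (right) H3K27ac summits with a summit of the other condition within a given distance (bp, log scale), with exact 95% intervals. The ERRFI1 window follows the dense clusters outside it and, at 48.6% and 53.6% within 500 bp, lies under the whole lists at 71.9% and 64.3%. For knockdown summits its interval at 500 bp reaches the list's value, and at 2000 bp it lies above the list, at 87.0% against 81.1%.

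Lower-scored summits of the window were shared less often, with intervals that did not overlap in the control and did after knockdown. Of the 36 higher-scored control summits of the window, 25 were shared within 500 bp, or 69.4% (51.9 to 83.7%), and of the 36 lower-scored 10, or 27.8% (14.2 to 45.2%). In the whole control list, summits with scores from 5.04 up were shared in 78.5% and those from 5.03 down in 60.3%. After knockdown, 23 of the 35 higher-scored summits were shared, or 65.7% (47.8 to 80.9%), against 83.4% of the list at such scores, and 14 of 34 lower-scored ones, or 41.2% (24.6 to 59.3%), against 39.0%. By place, the gene and its upstream stretch to 8.165 Mb shared 17 of 27 control summits, or 63.0% (42.4 to 80.6%), and the 135 kb beyond 13 of 40, or 32.5% (18.6 to 49.1%). From the knockdown side these were 18 of 29 and 14 of 34. All 5 control summits downstream of the gene were shared, at most 129 bp apart.

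When the H3K27ac summits of both lists were joined into stretches wherever neighbours were at most 1000 bp apart, 69 stretches resulted. Of these, 38 held summits of both conditions, or 55.1%, against 65.8% of the 28696 stretches of the whole lists, while 14 held the control only and 17 the knockdown only. With neighbours linked up to 500 bp there were 98 stretches, of which 32 held both conditions, or 32.7% against 50.9% of the whole lists, 34 the control only and 32 the knockdown only. Of the stretches linked at 1000 bp, those of a single condition had a median top score of 4.55 in the control and 5.07 after knockdown. The highest of each kind, 29.8 and 60.2, were the pair at 8107484 and 8106442 that lay 1042 bp apart. With neighbours linked up to 2000 bp there were 41 stretches, 32 in both conditions, or 78.0% against 72.3%, 3 in the control only and 6 after knockdown only. The window was thus below the whole lists at 500 and 1000 bp and above them at 2000 bp.

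The number of H3K27ac summits was similar in both conditions. The knockdown to control ratio was 0.958 in the window and 1.08 over the whole lists. In the gene and upstream stretch to 8.165 Mb it was 1.07, so its side of 1 depended on the stretch counted. These ratios are a description, since the window was selected on these summits and each condition is 1 library.

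KAT7 was seldom listed at the acetylated sites. No KAT7 summit of either list lay in the gene. The control list had 2 between the gene and 8.165 Mb, at 8097743 with a score of 4.02 and 8099266 with 1.31, and neither was within 500 bp of H3K27ac in either condition. From 8099266 the next control KAT7 summit was 93.3 kb upstream, at 8192529, and 27 control H3K27ac summits lay between them, with scores up to 43.6. This was the longest gap between control KAT7 summits of the window. Gaps at least this long made up 2.37% of all gaps between neighbouring control KAT7 summits, whose median was 15.4 kb. After knockdown no KAT7 summit was listed for 286 kb, from 8050661 to 8336951, and 65 knockdown H3K27ac summits lay between, 63 of them in the window. Gaps at least this long made up 9.83% of gaps in that shorter list, with a median of 70.2 kb. Both gaps were picked after their lengths were seen, so these shares do not show that either is unusual.

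Most control KAT7 summits of the window had the low scores that are commonest in their list. A score of 2.68 was given to 7 of them and a score of 1.31 to 4, and these are the 2 commonest scores of the list, held by 78.6% of its summits in the window and 64.2% of all its summits. The highest was 7.87 at 8058324, ranked 5381 of 122439, on the downstream side of the gene and 7663 bp from the nearest control H3K27ac summit. The others above these values were 4.02 at 8097743 and 5.28 at 8207296. For the last, the nearest H3K27ac summit was 319 bp away after knockdown and 4360 bp away in the control. At 2.68 were the summits at 8004640, 8006510, 8029568, 8192529, 8202896, 8275258 and 8279292, and at 1.31 those at 8034923, 8050673, 8099266 and 8217900.

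In the control, 4 of the 14 KAT7 summits had a control H3K27ac summit within 500 bp, or 28.6% (8.39 to 58.1%), against 3.67% of the whole list. Control H3K27ac summits of the window were spaced by a median of 1930 bp, and the part of this crowding in the share was not tested. The distances were 12 bp at 8050673, 92 bp at 8192529, 40 bp at 8202896 and 166 bp at 8275258. The last 3 had no knockdown KAT7 summit nearer than 61693 bp, and their nearest knockdown H3K27ac summits were 1000, 946 and 2775 bp away. From the H3K27ac side, 5 of 72 control summits had KAT7 within 500 bp, or 6.94% (2.29 to 15.5%), against 14.8% of the whole list, a value inside the interval. After knockdown it was 1 of 69, or 1.45% (0.0367 to 7.81%), against 14.3%, above the interval. Both shares are taken over the H3K27ac summits for whose number the window was selected. The part of that selection in them was not tested.

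KAT7 was seldom listed at the H3K27ac summits of dense runs elsewhere. In runs of at least 20 summits outside the window, KAT7 of the same condition lay within 500 bp of 2.47% (1.32 to 4.18%) of H3K27ac summits in the control and of 2.19% (0.887 to 4.47%) after knockdown. The window's share was higher in the control, at 6.94%, and lower after knockdown, at 1.45%, with overlapping intervals. The run at ERRFI1 had none at that distance in either condition, like 11 of the other 22 control runs and 6 of the other 11 knockdown runs. The other control runs, here and in the next sentence, include the farther run of the window. Between its first and last summit it held 2 control KAT7 summits, or 23.0 per Mb, where the other control runs together had 27.9 per Mb. The knockdown run held 0, where the others had 12.6 per Mb. Such counts were small, with a median of 1 KAT7 summit per other run in the control and 0 after knockdown.

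**Figure D4:**
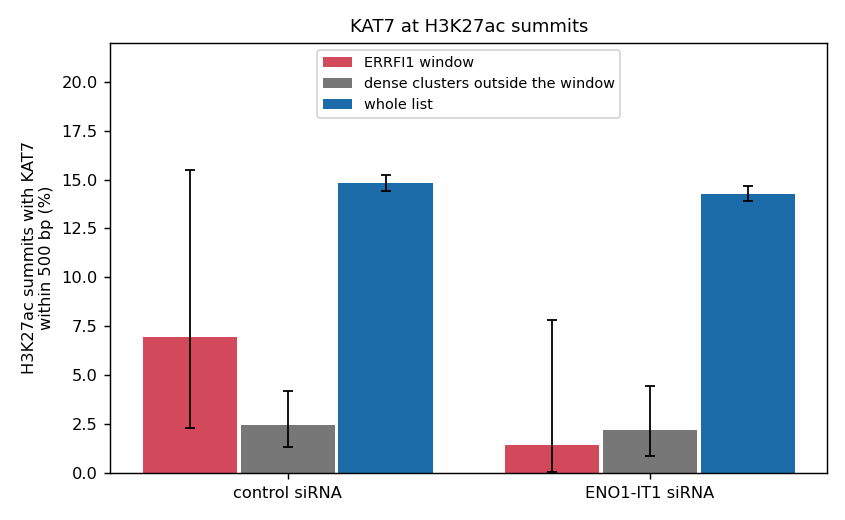
Share of H3K27ac summits with a KAT7 summit of the same condition within 500 bp (y axis, percent), with exact 95% intervals, in the ERRFI1 window, in dense clusters outside it and in the whole list. The window, at 6.94% in the control and 1.45% after knockdown, overlaps the dense clusters. Its control interval holds the 14.8% of the whole list, and its knockdown interval lies under the 14.3%.

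A single position of the window was listed in all 4 immunoprecipitated libraries, and it lay outside the run at ERRFI1, 35.3 kb downstream of the gene's upstream end. H3K27ac was at 8050661 in the control with a score of 16.6, ranked 4315, and at 8050648 after knockdown with 4.93, ranked 22948. KAT7 was at 8050673 in the control with 1.31, a score shared by the weakest calls of its list, and at 8050661 after knockdown with 27.8, ranked 2867 of 24611. The 4 summits lay within 25 bp of each other. Over the whole control H3K27ac list, 4.71% of summits had a summit of each other list within 50 bp, and here it was 1 of 72. In rank, H3K27ac stood higher in its control list and KAT7 higher in its knockdown list, but ranks from lists of unequal length show no change in enrichment.

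That summit was the only KAT7 summit of the window after knockdown. The knockdown to control ratio for KAT7 was 1 to 14, or 0.0714, where the whole lists had 0.201. With a single knockdown summit this ratio is too uncertain to compare with the lists, and it was 0.5 with lists of equal length. Of the 14 control KAT7 summits, 1 was shared within 500 bp, or 7.14% (0.181 to 33.9%), against 6.62% of the whole list. The knockdown summit, 1 of 1, had both a control KAT7 summit and a knockdown H3K27ac summit within 500 bp, as 32.2% and 19.0% of its whole list had.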

How the data were processed

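ChIP-seq summits from HCT116 cells were taken from 5 deposited lists, 1 per sample. Per the submitters' processing notes, Bowtie and MACS2 were used with the hg19 build. Tool versions, options and the control for calling are not stated there, and the peak names contain "rmdup". The authors deposited 1 score per summit, a -log10 p or q value, without saying whether p or q. Such scores grow with depth, which is unknown here, as no read counts were given.

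Members were the summits of chromosome 1 from 8000000 to 8300000. Summits were shared when at most 500 bp apart, linked into runs at gaps of at most 10000 bp, and compared with the whole lists and with runs of at least 20 summits. Shares carry exact Clopper-Pearson 95% intervals. With 1 library per group no test was made. Named summits are the 5 highest-scored of each H3K27ac list, the 3 nearest to the gene's upstream end and the ends of the run. The 5 highest of each condition alone and the highest KAT7 summits are also named. Outside this plan, the summits on either side of the strongest one close to the gene were named. The remaining KAT7 summits were added after their values were seen. The window and these choices were made with earlier results of these data known. Stretches linked at 1000 bp, gaps without KAT7 and score classes were added after seeing the data. Promoter sequences were from RefSeq for GRCh38.p14, in which both ERRFI1 and ERRFI1-DT matched by symbol. Marker and pathway gene lists were not used here, since no hg19 annotation was used, so the cell line's identity was not checked against markers. Python 3.11.15, numpy 2.4.6, pandas 2.3.3, SciPy 1.17.1 and matplotlib 3.10.9 were used, and the overlap code was tested on simulated data.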

Additional observations from a re-analysis of the deposited data

How the results depend on the processing

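Of 42 alternatives to 11 values, 19 left the value within its interval or within 1.5 times, 21 moved it and 2 turned it to the other side of 1. The H3K27ac ratio of 0.958 became 1.07 with summits merged within 1000 bp and 1.07 in the gene and upstream stretch to 8.165 Mb. The KAT7 ratio of 0.0714 became 0.5 with a score of at least 5, 0.5 with lists of equal length and 0 in the gene and upstream stretch, each from at most 3 summits. Within 100, 250 and 1000 bp the shared control H3K27ac summits made up 18.1%, 33.3% and 69.4%, and the knockdown ones 18.8%, 34.8% and 73.9%. With a score of at least 5, and with lists of equal length, the shared KAT7 summits fell to 0% from the control side and 0% from the knockdown side, because the control summit at 8050673 was left out. The score minimum also brought H3K27ac summits with KAT7 to 0% in the control and 0% after knockdown. The run at ERRFI1 measured 15.1 kb and 221 kb in the control and 13.1 kb and 194 kb after knockdown, with gaps of 5000 and 20000 bp, and ranked 90 and 1 in the control. No paired analysis was possible because each group had 1 library. Titles alone tell the conditions apart, so exchanged titles would turn every direction.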

Other observations

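Of the 72 control H3K27ac summits of the ERRFI1 window, 10 were over 2000 bp from any knockdown summit, or 13.9% (6.87 to 24.1%), against 6.54% of the whole list. For knockdown summits the order was turned, with 9 of 69 over 2000 bp from any control summit, or 13.0% (6.14 to 23.3%), against 18.9% of the whole list. In the farther upstream run, the control list had 3 neighbouring summits from 8264056 to 8265767, with a top score of 5.02, and 3 from 8273772 to 8275424, with a top score of 3.53, where no knockdown summit was joined to them at 1000 bp. These stretches were singled out after their values were seen.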
